A study of Mus musculus with 5 samples.

Results

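The genes described here encode the enzymes that finish the HNK-1 glycan, with one close relative that works on proteoglycans. They were chosen by name: B3gat1, B3gat2, B3gat3 and Chst10, which are 4 of the 14715 genes in the deposited matrix of mouse spiral ganglion neurons. These neurons carry sound information from the cochlea to the brainstem. The cells came from 2 control samples (bhlhb5-Cre/+; Ai14/+) and 3 CKO samples (bhlhb5-Cre/+; Ai14/+; Runx1F/F) of mice of both sexes aged 30 to 33 days. Every sample, control included, carried the Cre driver and the Ai14 tdTomato reporter, and the CKO samples alone carried the floxed alleles of Runx1, the gene of a transcription factor, meant to be deleted by Cre in these neurons in the embryo. The tissue was digested with collagenase and papain, tdTomato-positive cells were sorted, and the 10x Genomics 3' assay, version 3, was used for the libraries. What reached the libraries depended on where bhlhb5-Cre had been active and on survival of the digestion and sort.

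HNK-1 is a small sugar structure, a sulfated glucuronic acid on N-acetyllactosamine, carried in nervous tissue by adhesion proteins such as NCAM, L1 and myelin-associated glycoprotein. It is built in the Golgi in steps. The glucuronyltransferases GlcAT-P (encoded by B3gat1) and GlcAT-S (B3gat2) add glucuronic acid to galactose, and a sulfotransferase (Chst10) then adds the sulfate. GlcAT-I, the product of B3gat3, is related in sequence but adds glucuronic acid to the linker that joins glycosaminoglycan chains to proteoglycans, and so serves nearly all cell types.

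The neurons were sorted into 4 classes by a rule on 3 genes, with levels in unique molecular identifiers (UMIs, counted RNA molecules) per 10000 UMIs of a cell. A neuron with Dupd1 at 1 or more was type II, the class that contacts outer hair cells. Of the rest, a neuron with Lypd1 at 3 or more was type Ic, one with Calb2 (calretinin) at 150 or more was type Ia, and the remainder were type Ib. The rule's own genes are no finding, and the members were picked with their levels in these classes already known, so their levels are a description without a test. Control held 242 type Ia, 395 Ib, 314 Ic and 119 type II neurons, and CKO 384, 216, 132 and 152. One marker outside the rule, Calb1, went with the Ib name in control, and other Ib markers are not given here. The Ia, Ic and type II names are not checked this way here. Calb1, a type Ib marker, averaged 1.31 in Ib against 0.283 in Ia and 0.0894 in Ic. Prph, the type II intermediate filament gene, averaged 2.83 in type II, with no other class given beside it. In CKO the Ib name had less support, because Calb1 stood at 1.90 in Ia, 2.56 in Ib and 1.46 in Ic. Ia, Ib and Ic in CKO are therefore names for Calb2-high, remaining and Lypd1-positive neurons.

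The 1954 cells held between 10379 and 100856 UMIs, with a median of 38085 in control (1070 cells) and 44120.5 in CKO (884 cells). The deposited record names the genotype of a cell and not its library, so each genotype is 1 pool and no difference between genotypes could be tested. Barcodes run alphabetically and restart along the columns, which parts the cells into 5 stretches of columns. Stretches 1, 3 and 4 are CKO and stretches 2 and 5 control, and they are not replicates here, since no source used here ties them to libraries. CKO stretch 4 (157 cells) stood apart from the rest of CKO, so each main value is also given without it. Of its neurons 19 were type Ia and 56 Ic, against 167 and 48 in stretch 1 and 198 and 28 in stretch 3. Runx1 averaged 1.23 in control and 1.68 in CKO over all neurons. In type Ia neurons it averaged 0.271 and 0.209 in control stretches 2 and 5, 2.04 and 1.47 in CKO stretches 1 and 3, and 0.0816 in CKO stretch 4. Stretch 4 thus lay with the controls there, against its recorded genotype. Whether that record is right was not tested, and the pooled CKO values, and each overlap of the genotypes that stretch 4 makes, rest on it. Counts at the 3' end need not include the floxed part and so do not check the deletion. One barcode occurred in both genotypes. Schwann and satellite glia RNA (11 marker genes summing to 5 or more) was seen in 62.1% of control and 57.2% of CKO cells. Intervals below are exact 95% intervals for counting error alone, and say nothing of variation between animals.

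B3gat1 was the member whose level differed most between the pools and classes, and it is the gene to which the type Ia name is often tied. On the mm10 build it lies on the plus strand of chromosome 9, from 26733728 to 26763101, and overlaps Glb1l2 on the opposite strand. Glb1l2 averaged 0.00394 in control and 0.00414 in CKO, under any B3gat1 level given below for type I neurons. GENCODE lists 6 B3gat1 transcripts, of which 4 begin within 200 bases of the gene's start and 1 at RefSeq's start. RefSeq's start lies 17834 bases further in than the gene's start, at 26751562. The 300 bases around that RefSeq start are shown because the level of this gene differed between the Runx1 genotypes, with the first 50 transcribed bases in capitals (plus strand, chr9:26751312-26751611, RefSeq on GRCm38.p6).

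B3gat1 promoter: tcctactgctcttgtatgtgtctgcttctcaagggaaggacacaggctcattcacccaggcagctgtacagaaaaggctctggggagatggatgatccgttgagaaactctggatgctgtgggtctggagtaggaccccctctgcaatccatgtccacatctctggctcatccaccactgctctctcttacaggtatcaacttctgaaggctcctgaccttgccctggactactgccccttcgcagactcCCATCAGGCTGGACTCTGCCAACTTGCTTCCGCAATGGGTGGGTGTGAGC

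The Runx motif, searched as TGTGGT or TGCGGT on either strand, had 0 matches in this window. It had 0 matches in the same windows of B3gat3 and Chst10, and 22.4% of 32851 promoters held a match. The absence of these letters says nothing about binding elsewhere. The more upstream starts of B3gat1, where 4 of its 6 listed transcripts begin, were not searched. B3gat2 was not matched in the promoter table.

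Across all neurons, B3gat1 averaged 1.605 in CKO stretch 1, 0.435 in control stretch 2, 1.76 in CKO stretch 3, 0.311 in CKO stretch 4 and 0.986 in control stretch 5. Stretches 1 and 3 lay above both controls and stretch 4 below both, so the genotypes overlapped. The pooled means were 0.738 in control (3341 UMIs) and 1.44 in CKO (5770 UMIs), a log2 difference of 0.88 with 0.1 added to each mean. The ratio of summed UMI rates was 1.88 (1.80 to 1.96). Without stretch 4 the CKO mean was 1.69 and the log2 difference 1.09. Leaving out control stretch 2 gave 0.50, and leaving out control stretch 5 gave 1.53. The control stretches also differed, with a rate in stretch 5 that was 2.26 times that in stretch 2 (2.08 to 2.46). Among 3784 genes at a mean of 0.5 or more in either pool, 0.264% were at least 2-fold apart, and B3gat1 ranked 10 from the highest without reaching 2-fold. B3gat3, the other member in that set, ranked 1141.

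The difference in B3gat1 was uneven across the neuron classes. In control it was highest in Ia, lower in Ib and close to 0 in Ic, with means of 2.02, 0.693 and 0.0820, and type II held 0.0163. In CKO the same classes held 2.11, 1.48 and 1.04, with 0.0310 in type II. So the Ia level lay close to control while Ib and Ic lay nearer to Ia. The plot of the members by class and stretch shows that flattening in stretches 1 and 3, and a control-like slope in stretch 4.

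**Figure D1:**
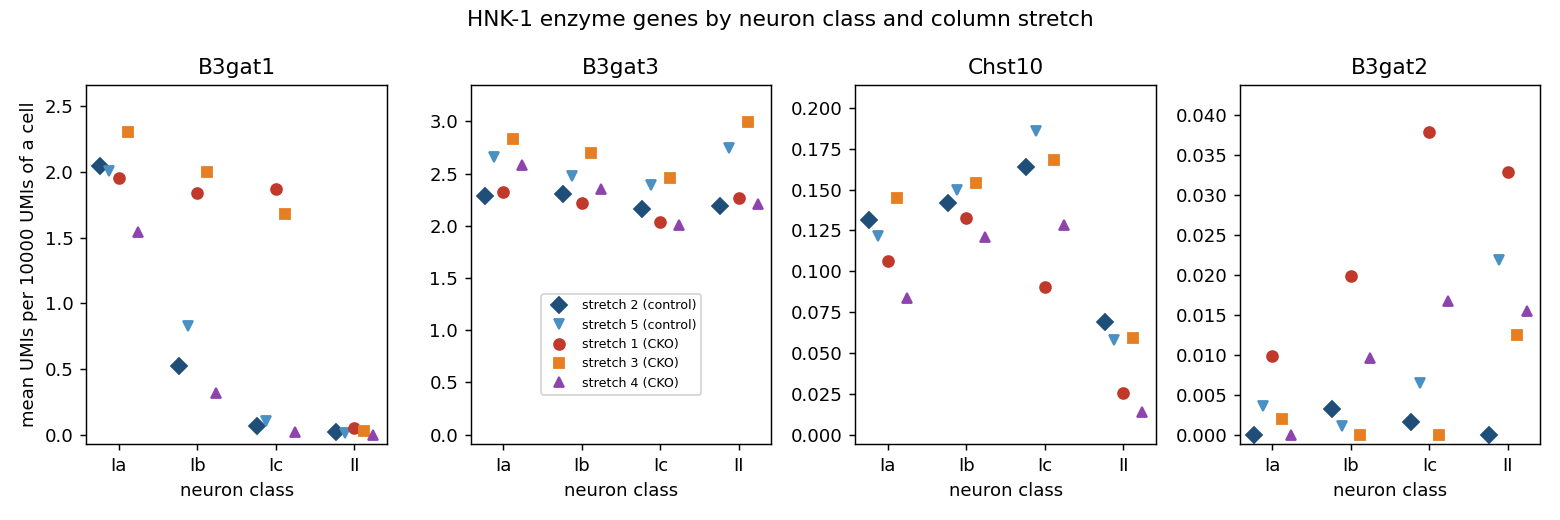
Mean level (UMIs per 10000 UMIs of a cell, linear axes that differ between panels) of each member in the 4 neuron classes, 1 symbol per column stretch, with no error bars. In type Ic, B3gat1 sits at 1.87 and 1.68 in CKO stretches 1 and 3 and at 0.108 or less in the other 3 stretches, while B3gat3 is between 2.004 and 2.995 in every class and stretch.

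In type Ia neurons B3gat1 averaged 2.05 and 2.01 in control stretches 2 and 5, and 1.95, 2.31 and 1.54 in CKO stretches 1, 3 and 4. Genotypes overlapped, and the lowest value came from 19 cells. The CKO over control rate ratio was 1.03 (0.982 to 1.09) and the log2 difference 0.06, against 0.388% of 3611 genes at least 2-fold apart in this class. B3gat1 UMIs were found in 241 of 242 control and in 384 of 384 CKO neurons of type Ia. Within Ia, control neurons with a Runx1 UMI averaged 1.88 and those without one 2.13, and the CKO values were 2.17 (318 neurons) and 1.84 (66). The CKO split mixes stretches, because the 19 neurons of stretch 4 averaged 0.0816 for Runx1 and 1.54 for B3gat1. It is not given without stretch 4, and a link to Runx1 was not tested.

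In type Ib neurons B3gat1 averaged 0.523 and 0.826 in control stretches 2 and 5, and 1.84, 2.001 and 0.314 in CKO stretches 1, 3 and 4. Stretches 1 and 3 were far above either control, and stretch 4 was below both. The pooled log2 difference was 0.99, with a rate ratio of 2.15 (1.97 to 2.34). Without stretch 4 these became 1.35 and 2.78 (2.55 to 3.03). At least a 2-fold difference was found for 0.342% of 3805 genes in this class, or 0.682% of 3813 without stretch 4, and in each case B3gat1 ranked 11 from the highest.

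Type Ic held the widest contrast. B3gat1 averaged 0.0638 and 0.108 in control stretches 2 and 5, and 1.87, 1.68 and 0.0180 in CKO stretches 1, 3 and 4. Again stretches 1 and 3 stood high and the remaining CKO stretch was below both controls. The pools held 94 UMIs in 314 control neurons and 584 UMIs in 132 CKO neurons, a rate ratio of 12.6 (10.1 to 15.8) and a log2 difference of 2.65. Without stretch 4 the CKO mean was 1.80, the rate ratio 21.2 (17.0 to 26.7) and the log2 difference 3.38. Leaving out stretch 1 instead gave 1.88. B3gat1 ranked 2 from the highest of 3845 genes, of which 0.39% were at least 2-fold apart, and 2 of 3828 without stretch 4, of which 0.914% were. The stretch 4 rate was 0.262 of the control rate (0.0831 to 0.633).

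The same contrast was visible in single neurons. A B3gat1 UMI was present in 46 of 48 type Ic neurons of CKO stretch 1 and in 24 of 28 of stretch 3, but in 5 of 56 of stretch 4. The controls had 29 of 185 in stretch 2 and 32 of 129 in stretch 5. With every cell thinned to 10000 UMIs, to level the depths, the pooled shares in Ic were 5.73% in control (3.43 to 8.91) and 41.7% in CKO (33.2 to 50.6). Unthinned, they were 61 of 314 and 75 of 132. Type II, which lacked the gene almost wholly, gave thinned shares of 2.52% and 1.32% at median depths of 25326 and 27102 UMIs, and Ic had medians of 37895.5 and 47494. Of the 29 B3gat1 UMIs in CKO type II neurons, 15 were in 1 cell.

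**Figure D2:**
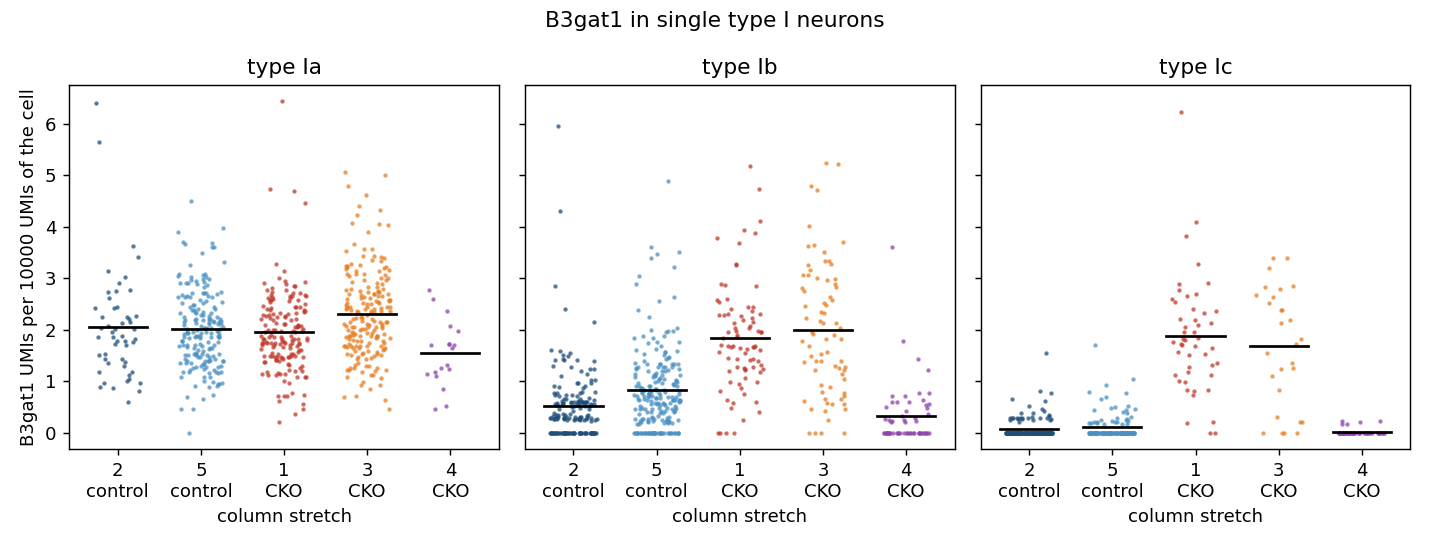
B3gat1 level (UMIs per 10000 UMIs of the cell) of each type Ia, Ib and Ic neuron, 1 point per neuron with random sideways spread, by column stretch; black bars are means. Type Ia clouds overlap in all 5 stretches, while in type Ic the means are 1.87 and 1.68 in CKO stretches 1 and 3 and at most 0.108 in the others.

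Set against type Ia neurons of the same stretch, the type Ic rate of B3gat1 was 0.0315 and 0.0503 of the Ia rate in control stretches 2 and 5. It was 0.899, 0.734 and 0.0137 in CKO stretches 1, 3 and 4. The Ic rate thus came near the Ia rate in both of the larger CKO stretches and in neither control. Median depth was lower in Ic than in Ia in every stretch, for example 49914.5 against 54314 UMIs in stretch 1 and 34989 against 42241.5 in stretch 2. For Ib the shares of the Ia rate were 0.260 and 0.378 in control, and 0.913, 0.849 and 0.1998 in CKO. Other type Ia markers were not as level across the classes. Rxrg, a retinoid receptor gene, had an Ic rate 0.129 of the Ia rate in stretch 1 (0.0637 to 0.233) and 0.174 in stretch 3 (0.0861 to 0.313). Pcdh20, a protocadherin gene, had 0.407 (0.253 to 0.626) and 0.320 (0.173 to 0.545). Rxrg in control Ic averaged 0.0363 in the 61 neurons with a B3gat1 UMI and 0 in the other 253. It averaged 0.0451 in the 46 such neurons with a UMI in stretch 1 and 0.121 in the 24 of stretch 3. Rxrg was thus also above pooled control in Ic of these stretches, and the control share of Pcdh20 is not given here. Rxrg was not confined to Ia, with 0.570 in the 114 control type II neurons without a B3gat1 UMI.

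The same neurons were also placed in bins of Calb2 and of Lypd1. The class rule used both genes, so the bins describe these neurons again and are no separate support. Of the 326 control type I neurons with Calb2 under 25, 277 were type Ic. Along Calb2, the gene whose level of 150 parts Ia from Ib, control type I neurons (Ia, Ib and Ic together) had B3gat1 rates of 0.0800 below a Calb2 of 25, 0.420 from 25 to 50, and 0.700 from 50 to 100. Control then had 1.37 just under the border, from 100 to 150, and 1.86 just over it, from 150 to 200. In CKO without stretch 4 the corresponding rates were 1.35, 1.67, 1.77, 2.04 and 2.32. At 200 to 300 the groups were close, with 2.08 in control and 2.10 in CKO without stretch 4. So B3gat1 was higher at higher Calb2 in control up to 300, whereas CKO without stretch 4 held at least 1.35 in each of these bins. Below 25 its stretches differed, with 1.59 in stretch 1 (1.37 to 1.84) and 0.935 in stretch 3 (0.717 to 1.199). With stretch 4 included, the CKO rates below 25 and from 25 to 50 were 0.554 and 1.07, and stretch 4 alone had 0.0578 and 0.269.

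**Figure D3:**
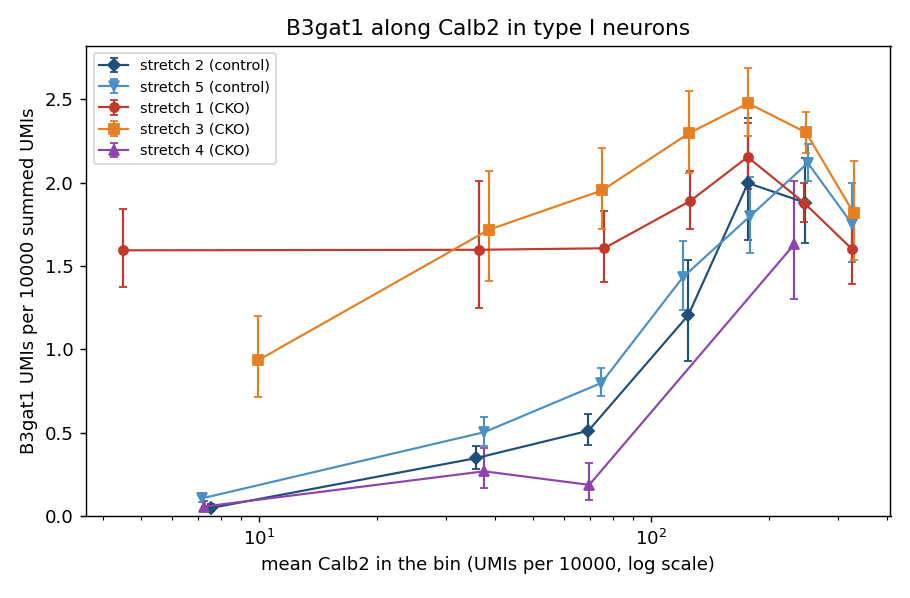
Summed B3gat1 UMIs per 10000 summed UMIs in type I neurons, by bins of Calb2 (log axis, mean of the bin), 1 line per column stretch, for bins of 10 or more cells; bars are exact 95% Poisson intervals. In the lowest bin CKO stretch 1 is at 1.59, CKO stretch 3 at 0.935 and CKO stretch 4 at 0.0578, beside 0.0800 for the pooled controls.

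Along Lypd1, whose level of 3 sets type Ic apart, B3gat1 in control averaged 1.197 in neurons below 3, 0.210 just over the border (3 to 10), 0.155 from 10 to 30 and 0.0516 above. CKO held 1.89, 1.71, 1.72 and 0.332 in those bins, and 2.08, 1.82, 1.98 and 1.38 without stretch 4, the last from 15 neurons. Lypd1 itself averaged 15.8, 23.1 and 42.2 in the Ic neurons of CKO stretches 1, 3 and 4, against 33.02 and 39.7 in control. Their Calb2 averaged 45.3, 38.8 and 4.46, against 10.6 and 8.86. Ic neurons of stretches 1 and 3 thus had less Lypd1 and more Calb2 than control, and those of stretch 4 the reverse. Among Ic neurons with Calb2 under 25, B3gat1 averaged 0.0605 in 277 control neurons, 1.94 in 21 of CKO stretch 1, 0.924 in 12 of stretch 3 and 0.0183 in 55 of stretch 4. Stretches 1 and 3 were above control there too, on few neurons, and stretch 3 was lower than in Ic as a whole. The log2 difference of the pools was 2.12 in these neurons, against 2.65 in all Ic neurons.

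In CKO, type Ic neurons with a B3gat1 UMI numbered 75 and had a median Lypd1 of 14.3 and Calb2 of 35.7. The other 57 had medians of 43.1 and 0.571. Their median depths were 47685 and 47303 UMIs. Stretch 4 gave 5 of the 75 and most of the 57, so the split is largely one between stretches. No doublet caller was run, and whether barcodes holding RNA of 2 neurons contributed was not tested beyond these depths. Glial RNA was measured beside this: B3gat1 averaged 0.968 in CKO Ic neurons with glial RNA at 5 or more and 1.19 in those below, against 0.0807 and 0.0842 in control.

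Because CKO held a larger share of type Ia neurons (43.4% against 22.6%), the pooled difference mixes class shares with levels within classes. With control class shares, CKO levels gave a B3gat1 mean of 1.33, a log2 difference of 0.77. With CKO class shares, control levels gave 1.06, a log2 difference of 0.47. Both parts point the same way, and the first takes as given that a class means the same neurons in both genotypes, which the Calb1 values above do not bear out.

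B3gat2, the other glucuronyltransferase that starts HNK-1, was close to undetected. It had 15 UMIs in 14 control neurons and 32 UMIs in 32 CKO neurons. By stretch, CKO 1, 3 and 4 held 23, 4 and 5 of these UMIs, and control 2 and 5 held 3 and 12. Most CKO counts were thus in 1 stretch. The rate ratio was 2.32 (1.22 to 4.61), with means of 0.0114 in CKO and 0.00339 in control, far under the limit of 0.5 used for counting. No class carried it: control had 4, 3, 5 and 3 UMIs in Ia, Ib, Ic and II, and CKO had 8, 5, 10 and 9. Its locus on chromosome 1, from 23761753 to 23849158 on the plus strand, overlaps Smap1 on the opposite strand.

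Chst10, the sulfotransferase that completes HNK-1, was low in all type I classes and lower in type II. It is on the minus strand of chromosome 1, from 38863867 to 38898161, where the annotation also has an antisense gene. Its means were 0.138 and 0.141 in control stretches 2 and 5, and 0.0972, 0.132 and 0.103 in CKO stretches 1, 3 and 4. The CKO stretches were all below the controls, by a margin that was small for stretch 3. The pools held 560 and 430 UMIs, with means of 0.140 in control and 0.113 in CKO. The log2 difference was -0.17 and the rate ratio 0.835 (0.734 to 0.948). With control class shares, CKO levels gave a log2 difference of -0.13, and with CKO class shares, control levels gave -0.08. The pooled difference thus mixes class shares with levels, and within Ia the log2 difference was 0.01. At these means Chst10 was outside the 3784 genes counted. Thinned shares of neurons with a UMI were 13.8% in control and 7.92% in CKO, and unthinned shares 39.5% and 37.4%. The thinned shares lay further apart than the unthinned ones. Thinning keeps UMIs at random, the variation of these shares between draws was not tested, and their gap is not read as a result.

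By class, Chst10 did not share the B3gat1 gradient. Control means were 0.124 in Ia, 0.146 in Ib and 0.173 in Ic, so Ic was the highest class, with a rate 1.39 times that of Ia (1.11 to 1.74). CKO means were 0.125, 0.137 and 0.123. In Ic the control stretches held 0.164 and 0.186 and CKO stretches 1, 3 and 4 held 0.0904, 0.168 and 0.128. Stretch 3 lay between the controls, so the genotypes overlapped, and the Ic rate ratio was 0.665 (0.495 to 0.885). Type II had 0.0644 in control and 0.0395 in CKO, at 0.511 (0.298 to 0.828) and 0.298 (0.164 to 0.503) of the Ia rates.

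B3gat3, which serves proteoglycan synthesis rather than HNK-1, had nearly the same level in every class and genotype. It lies on the plus strand of chromosome 19, from 8920374 to 8927236, with no annotated overlap. Its means were 2.23 and 2.54 in control stretches 2 and 5, and 2.25, 2.81 and 2.23 in CKO stretches 1, 3 and 4. The genotypes overlapped. The pooled means were 2.40 and 2.48, with a log2 difference of 0.05 and a rate ratio of 1.02 (0.994 to 1.052), and a UMI was found in 99.4% of control and 99.5% of CKO neurons. By class the control means were 2.58 in Ia, 2.40 in Ib, 2.26 in Ic and 2.41 in II, and the CKO means 2.60, 2.42, 2.11 and 2.60. The Ic rate was somewhat under the Ia rate in both genotypes, at 0.875 (0.831 to 0.922) in control and 0.832 (0.781 to 0.885) in CKO. In Ic neurons, the CKO over control ratio was 0.938 (0.876 to 1.003), beside 12.6 for B3gat1 in the same cells.

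The genes that work before, beside or after the members were taken from 6 lists, and a gene was counted where its mean reached 0.2 in either pool and called where the pools were 1.5-fold or more apart. Over all neurons, 0.898% of 6678 genes were called, with a median log2 difference of -0.03, and B3gat1 was the 1 called member. No gene of the 6 lists was called, which for lists of this size is near the background share and so is no result about them. The plot of the pathway lists shows each gene.

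**Figure D4:**
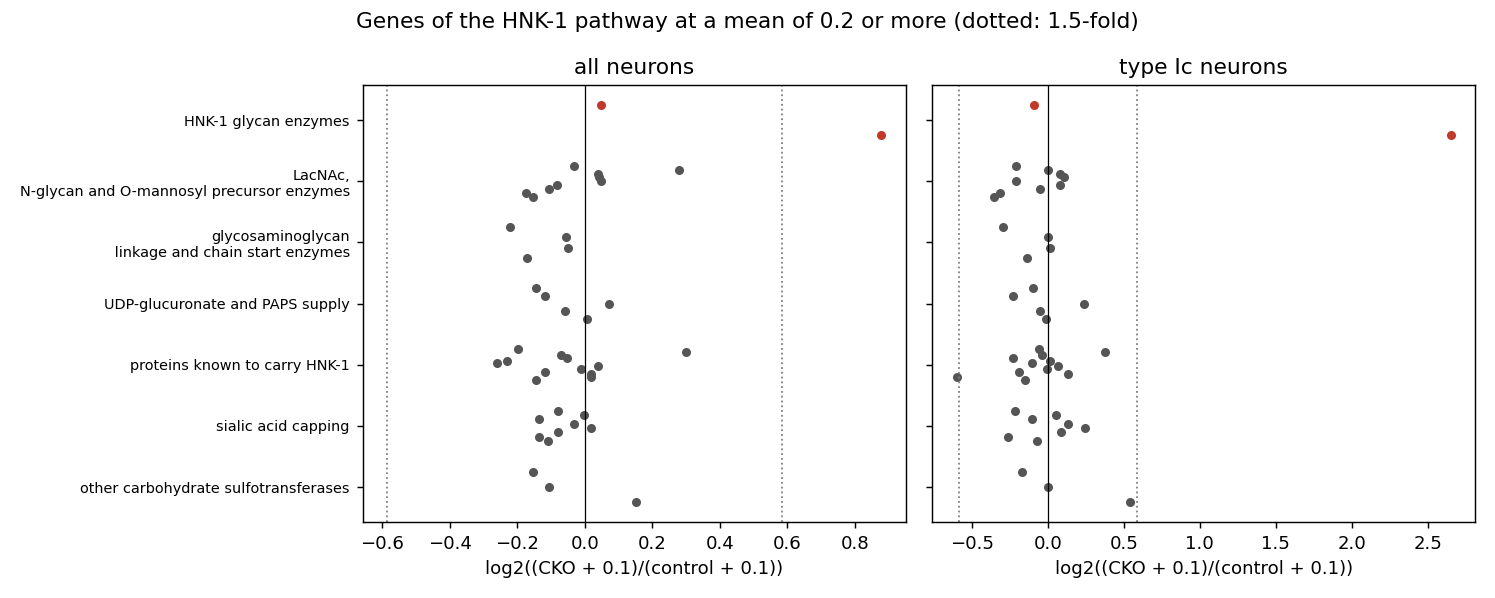
Log2 CKO over control (0.1 added to each mean) of each member (red) and pathway gene (grey) at a mean of 0.2 or more, over all neurons and in type Ic neurons; vertical scatter only separates points. B3gat1 is at 0.88 and 2.65, and the pathway genes stay inside the dotted 1.5-fold lines except L1cam in type Ic, at -0.60.

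The list for N-acetyllactosamine and the glycan branches on which HNK-1 sits had 9 of 17 genes at this level and a median of -0.03. A place in this list does not show that a gene helps to make the acceptor of HNK-1. The list held B4galt6, a galactosyltransferase, with means of 0.593 in control and 0.515 in CKO. Mgat3, which adds the bisecting N-acetylglucosamine, had 0.521 and 0.541. Mgat5, which opens a branch, had 0.166 and 0.223, the largest difference of the list at a log2 of 0.28. Its means were 0.152 and 0.177 in control stretches 2 and 5, and 0.299, 0.155 and 0.210 in CKO stretches 1, 3 and 4. Stretch 3 lay between the controls, so the genotypes overlapped. The enzymes that share the proteoglycan linker with B3gat3 had 4 of 12 at this level and a median of -0.11. Extl2 had 1.49 and 1.43, the xylose kinase gene Fam20b 0.759 and 0.663, and Extl3 0.326 and 0.265. Each of these pooled means was slightly lower in CKO, by less than the 1.5-fold limit. Extl2 was not lower in the type I classes, with 1.61 and 1.62 in Ia, 1.57 and 1.62 in Ib and 1.64 in both for Ic. In type II it had 0.594 and 0.499, so its pooled difference mixes class shares with levels. By stretch the genotypes overlapped for Extl2, with CKO stretch 1 (1.62) above both controls (1.47 and 1.51). They also overlapped for Extl3, with CKO stretch 3 (0.321) between the controls (0.332 and 0.320).

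Genes that supply the donors UDP-glucuronate and PAPS had 5 of 9 genes at this level and a median of -0.06. Ugp2, which makes UDP-glucose, had 0.689 and 0.694, the PAP phosphatase gene Bpnt1 had 0.568 and 0.516, and its Golgi relative Impad1 had 0.461 and 0.407. The list of sialic acid genes had 8 of 14 and a median of -0.08. St3gal5 was at 1.24 and 1.17, St8sia1 at 0.742 and 0.724, St3gal3 at 0.456 and 0.407, and St8sia3 at 0.312 and 0.274. Whether any of these acts on the galactose that HNK-1 uses was not tested. Other carbohydrate sulfotransferases had 3 of 11 and a median of -0.11, with Chst2 at 1.49 and 1.66, Chst8 at 0.739 and 0.679, and Gal3st1 at 0.441 and 0.387. All 3 were above Chst10, the HNK-1 sulfotransferase (0.140 and 0.113), in UMIs per 10000, a 3' count that needs no length correction. The 0.2 limit that kept them lies above Chst10, so this order in at least 1 pool was set by the filter. Of the genes under that limit, Chst11 and Chst12 were above Chst10 in both pools. Chst1, Chst3, Chst9, Chst14, Chst15 and Gal3st3 were below it in both.

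Genes of proteins known to carry HNK-1 had 12 of 19 at this level and a median of -0.06. Pmp22, a Schwann cell gene of compact myelin, averaged 5.76 in control and 4.89 in CKO. The share of cells with glial RNA was also lower in CKO, and the part of glial RNA in these values was not tested. Itgb1, an integrin subunit gene, had 1.19 and 1.49, a log2 of 0.30. It was highest in type II, at 3.36 and 3.88, and type II made up 11.1% of control and 17.2% of CKO cells. In Ia it was lower in CKO (0.978 and 0.898), and in Ib and Ic higher (0.939 and 1.08, 0.853 and 1.14). Its pooled difference thus mixes class shares with levels. Within Ic neurons 1 gene of the lists was called, L1cam, an adhesion molecule gene, at 0.452 in control and 0.264 in CKO, where 1.34% of genes were called. Within Ib 1 was called, the myelin gene Mag, at 0.00936 and 0.246, where 1.12% were. Of the 134 Mag UMIs in CKO Ib neurons, 123 were in 1 cell. L1cam and Mag were named after their values were seen.

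Likeness to B3gat1 was measured as Pearson's r of log2(mean + 0.1) over the 8 groups of class and genotype, among 4398 genes, and again over 20 points of class and stretch. The 5 most alike were Crot (r = 0.987), Ina (0.981), Abhd3 (0.980), Setd7 (0.973) and Stk24 (0.973). Over 20 points these had 0.676, 0.854, 0.912, 0.869 and 0.856. Ina, the alpha-internexin gene of the neurofilament family, had control means of 4.94 in Ia, 3.91 in Ib, 3.22 in Ic and 2.70 in II. It followed the same order of classes in CKO, with 4.98, 4.32, 3.98 and 2.93, over a much narrower span than B3gat1. Over the 20 points the order was different. Syngr1 came first (0.957), and Crot was 591 of 4398. Sh3bgr, which came next but one and is named after its values were seen, also lacked the control gradient in CKO, with 0.896, 0.381 and 0.334 in control Ia, Ib and Ic and 1.401, 1.27 and 1.58 in CKO. The groups pool the same cells as the points, whose median depths run from 25057 to 57828 UMIs, so these are descriptions.

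The profile of Chst10 over the same 8 groups was closest to Fbxo31 (r = 0.992), Fem1b (0.990), Gnaz (0.987), Map4k2 (0.987) and Tmem179 (0.987), of which Map4k2 had 0.973 over 20 points. For B3gat3 the closest were Odc1 (0.965), Cops7a (0.947), Fnta (0.914), Ptgr2 (0.892) and Bod1 (0.881), with 0.564 to 0.766 over 20 points. Chst10 was too low to be among the genes compared, so it could not appear in the lists of B3gat1 and B3gat3. Neither B3gat1 nor B3gat3 was among the closest 5 of the other or of Chst10. B3gat2 was too low to compare.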

How the data were processed

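Cell Ranger, Seurat and build mm10 are listed, with no versions, per the submitters' processing notes. Values were deposited by the authors as a single matrix in natural log units, ln(1 + 100000 × UMIs / cell total), a unit settled from the values. Dividing by the smallest value of a cell gave whole UMI counts for 100% of the deposited values within 0.01. Cell filters are not given in the sources used here.

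Levels are means over cells of UMIs per 10000. Log2 differences use 0.1 added to each mean, and rates are summed UMIs over summed totals. Intervals are exact: Poisson, binomial for ratios of rates, and Clopper-Pearson for shares. Cells are not replicates, so nothing was tested. Cells could not be assigned to libraries, so the per-library fit that was planned for that case was not made. The columns form 5 stretches, used for values and left out in turn. The members and lists were chosen with earlier results of these data known. Named are the members, the 2 highest and the 2 most different genes of each list, and the 5 genes most like each member. One gene that this rule names is not reported here. Alternatives were the pseudocount, class borders, thinning, the filter and scaling. The log2 calculation was tested on simulated data. Python 3.11.15, numpy 2.4.6, pandas 2.3.3, scipy 1.17.1 and matplotlib 3.10.9 were used. Gene positions are from GENCODE M21.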

Additional observations from a re-analysis of the deposited data

How the results depend on the processing

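No paired analysis was possible because the deposited cells carry a genotype and no library, so replicate numbers 4 and 5, which both genotypes share, mark no cells. Under the alternatives tried, 178 recomputed values stayed within the counting interval of the main value, or within 1.5 times a main count, and 48 moved further. The B3gat1 log2 difference was 0.96 with 0.01 added, 0.49 with 1 added and 0.98 in type I neurons alone. It ran from 0.50 (without stretch 2) to 1.53 (without stretch 5) when each stretch was left out in turn, and passed 2-fold without stretch 4 (1.09) or 5. Over the same omissions it ran from -0.075 to 0.14 in Ia, 0.71 to 1.35 in Ib and 1.88 to 3.38 in Ic, so the sign in Ia turned (without stretch 3). In Ib it passed 2-fold without stretch 4 or 5, with 0.01 added (1.08), with the Lypd1 border at 10 (1.06) and after thinning (1.02). With the Calb2 border at 100 it was 0.81 in Ib. In Ic it was 3.52 with 0.01 added, and, in alternatives chosen after seeing the data, 1.51 for Lypd1 of 30 or more and 2.12 for Calb2 under 25. B3gat3 ran from -0.092 to 0.15 without each stretch. Chst10 was -0.47 after thinning, a random step whose variation between draws was not tested. The count of genes at least 2-fold higher in CKO, 7, was 0 with 1 added and ran from 3 to 12 without each stretch, and the count lower, 3, from 1 to 11. With control class shares the B3gat1 difference was 0.67 and 0.84 with the Calb2 border at 100 and 200, and 0.53 to 1.24 without each stretch. The difference in the share of neurons with a UMI was 15.5 points for B3gat1 and 2.31 points for B3gat2 without thinning. The median gene stood at -0.02 and, with the 50 highest genes left out of the totals, at -0.01. Depth limits B3gat2, with 47 UMIs in all, and Chst10, and the number of libraries in each stretch is unknown. In 13 alternatives each, B3gat1 and Chst10 kept their sign over all neurons, and B3gat3 kept its sign in 11 and turned negative in the others.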

Other observations

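Neurons with a UMI of both B3gat1 and Chst10, the enzymes of successive steps of HNK-1 synthesis, made up 27.4% of control (24.6 to 30.4) and 38.0% of CKO type I neurons (34.4 to 41.6). With each cell thinned to 10000 UMIs the shares were 6.20% (4.76 to 7.93) and 6.42% (4.76 to 8.45), so they depend on depth. A Chst10 UMI was found in 43.2% of control neurons with a B3gat1 UMI and in 41.5% of those without, and thinned in 15.1% and 14.3%. The CKO shares were 43.8% and 39.2%, and thinned 9.00% and 7.62%. The thinned values come from the same random draw as the thinned Chst10 shares above, so their gap between genotypes is not read as a result. Within type Ic both were seen in 11.465% of control and 20.5% of CKO neurons, and thinned in 0.955% and 5.30%.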
